A study of Mus musculus with 96 samples.

Results

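The genes described here are named for proteins of the mitochondrial ribosome, which in mouse carry the symbols Mrpl for the large subunit and Mrps for the small subunit. Every value by subunit below follows the symbol. Structures place Mrps18a and Mrps30 in the large subunit despite their symbols, and Mrps36 has since been described as a subunit of another complex. Members were the gene rows whose symbol starts with Mrpl or Mrps followed by a digit, pseudogene symbols left out, and whose mean over cells reached 10 reads. All 76 rows that match the name passed this minimum, 47 of the large and 29 of the small subunit by symbol, among 23284 gene rows of which 11746 passed. The members closest to the minimum were Mrps26, with a mean of 80.0 reads, and Mrps30, with a mean of 125 reads, and no matching row lay outside it.

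The study sequenced the messenger RNA of 48 single embryonic stem (ES) cells from the mouse line J1, an established line, grown feeder-free in medium with fetal bovine serum and leukaemia inhibitory factor at passage 12 to 20. Cells were captured on a microfluidic chip, cDNA was amplified on the chip, and each library was read on 2 lanes. All cells form 1 group, serum ES cells, and the labels name no separate cultures, so there is no contrast of conditions. Spread over cells is the readout, and a p-value below sets a gene against other genes in these cells and does not extend to other cultures.

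Mitochondrial ribosomes translate the few messages encoded by mitochondrial DNA, all of them subunits of the respiratory chain and ATP synthase. Their RNAs are made in the organelle, whereas every protein of the particle is encoded in the nucleus, made on cytosolic ribosomes and imported. ES cells in serum rely strongly on glycolysis and hold immature mitochondria. Their cultures are known to mix cells with a naive pluripotency program and cells that express genes of the primitive endoderm, the extraembryonic lineage that forms beside the epiblast.

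A cell held 7137821 ± 1251221 reads in genes (SD, n = 48), from 4408953 to 9767245. The lanes of a cell agreed within counting noise. By the chi-square test over lanes, 0 of 76 members differed after Benjamini-Hochberg adjustment, beside 0 (0%) of 14712 genes, and 5 members and 698 genes (4.74%) had an unadjusted p under 0.05. The chi-square of a member per degree of freedom, which is 1 under pure counting noise, ranged from 0.630 to 1.62 with a median of 0.986. The lanes share their amplified cDNA, so this bears on sequencing alone and not on amplification. The cells fell into a cluster of 35 and a cluster of 13. Of 12 naive pluripotency markers, 10 were at least 2-fold higher in the larger cluster, and 12 of 12 primitive endoderm markers were at least 2-fold higher in the smaller one. The summed primitive endoderm markers ranged from 10440 to 38600 CPM (read counts scaled to the library's total) in the smaller cluster and from 45.4 to 1391 CPM in the larger one. The summed naive pluripotency markers overlapped, from 183 to 2408 CPM in the smaller cluster and from 1314 to 7470 CPM in the larger one. Cells of the larger cluster are called naive-like and those of the smaller one endoderm-like here. Summed trophectoderm markers ranged from 202 to 3900 CPM in endoderm-like and from 0.927 to 1924 CPM in naive-like cells. Of these 6 markers, 2 were at least 2-fold higher in endoderm-like and 3 in naive-like cells. None of the 5 2-cell-like markers had a read, and summed fibroblast markers stayed at or below 35.9 CPM. No member was among the 500 genes that defined the clusters.

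Mitochondrial ribosomal protein genes were well expressed as a family. Their reads made up 0.937% of a cell's reads in the median cell, from 0.558% to 1.24%, with a mean of 0.940% ± 0.149 (SD, n = 48). Large subunit genes took 0.687% and small subunit genes 0.260% in the median cell, and their ratio was 2.62 in the median cell, from 1.64 to 3.81. The summed share varied over cells with a coefficient of variation of 15.9%, beside 15.7% for the summed cytosolic ribosomal protein genes and 10.1% for the nuclear genes of the respiratory chain. In scaled CPM the summed members had a coefficient of variation of 23.9%. Single members varied far more, with a median coefficient of variation of 66.2% in CPM, from 37.2% to 137%.

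Levels between genes were compared as CPM per kilobase of exon, with exon lengths from GENCODE vM21. The median member had a mean of 74.1 CPM per kilobase, which lay at percentile 89.4 of the tested genes, whose median was 7.43. The median was 765 for cytosolic ribosomal protein genes and 199 for respiratory chain genes. On this scale 73 of 76 members lay above the median of tested genes. The median was 90.5 for the large and 49.9 for the small subunit. Members have short transcripts, with a median exon length of 1340 bases, from 478 to 7605, beside 3255 bases over tested genes.

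The highest mean levels per kilobase were those of Mrpl42 (650), Mrpl18 (335), Mrpl28 (261), Mrpl33 (246), Mrpl22 (239) and Mrpl20 (227), all of the large subunit. Mrpl42 had 197 CPM in the lowest cell, 405 in the median cell and 945 in the highest, and it was present in all 48 cells with at least 1267 reads. Mrpl18, whose product has a reported role in the import of 5S rRNA, had 89.4, 370 and 1181 CPM in the lowest, median and highest cell. The lowest mean levels per kilobase were those of Mrps26 (2.51), Mrpl3 (3.60), Mrps30 (5.35), Mrps35 (12.0), Mrpl48 (12.5) and Mrpl19 (14.2). Mrps26 had 0 reads in 7 cells, a median of 6.75 CPM and a highest value of 51.5 CPM. These 6 members have exon unions of at least 3319 bases, so a per-kilobase level rests on annotated exons that the cells may not use in full. Mrpl42, Mrpl18, Mrpl22 and Mrpl33 can share reads with another gene, through a transcript at least 95% identical over at least 50% of its length or an exon overlap of over 20%, so their levels are uncertain. Mrpl48 and Mrpl19 carry the same risk.

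**Figure D1:**
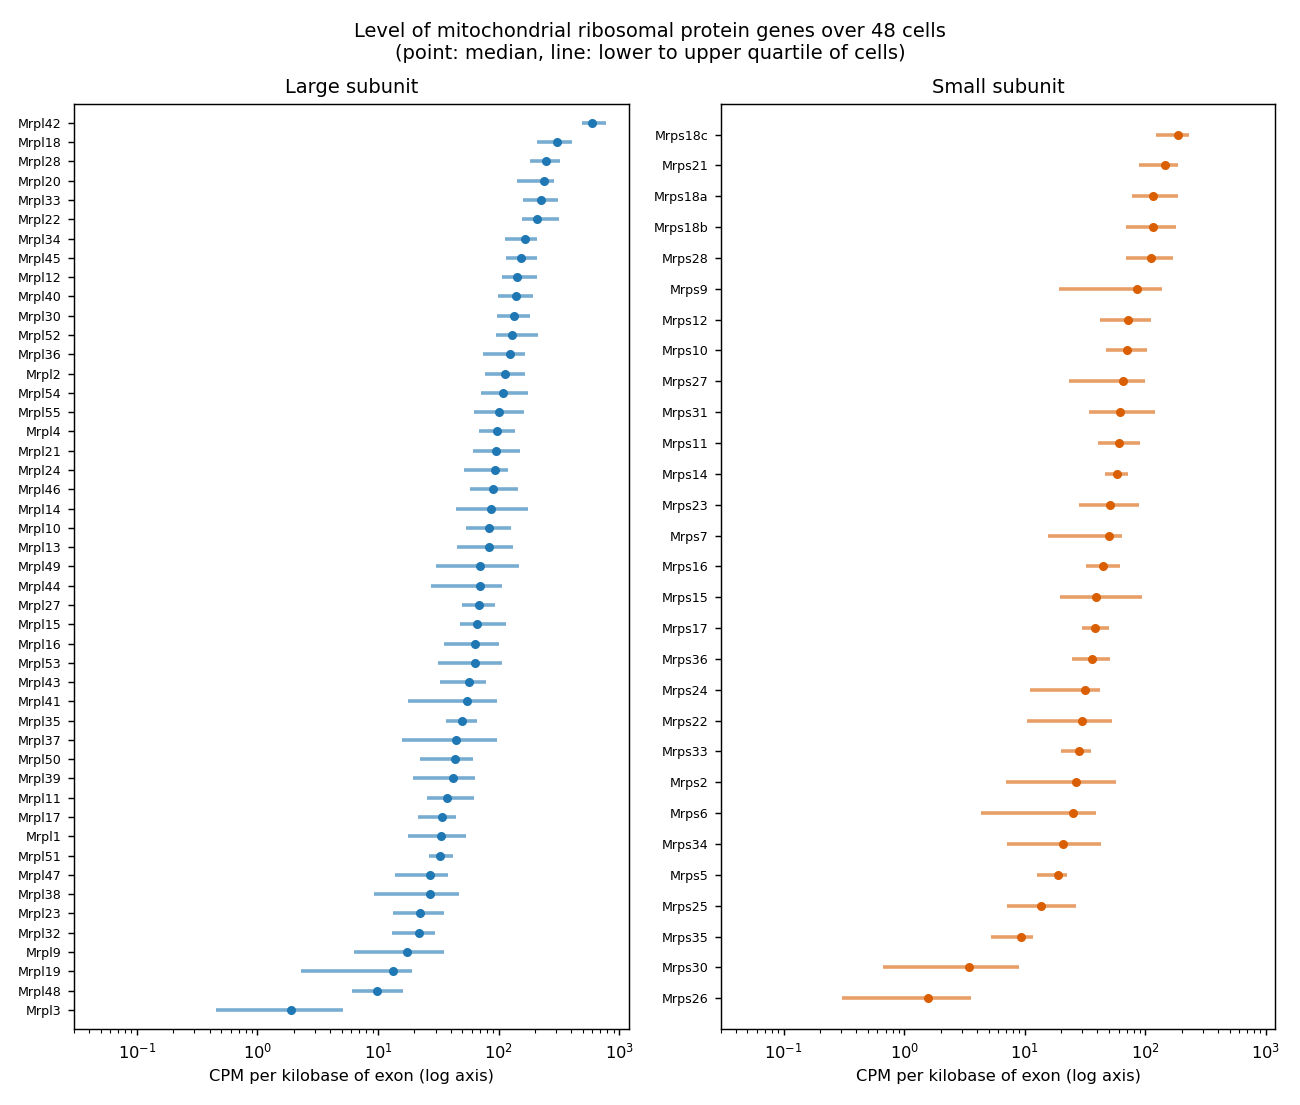
Level of each mitochondrial ribosomal protein gene in CPM per kilobase of exon (log axis), by subunit. Points are medians over the 48 cells and lines run from the lower to the upper quartile; Mrpl42 lies at the top of the large subunit and Mrps26 at the bottom of the small subunit.

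Paralogs of the ribosomal protein S18 were expressed side by side. Structures of mammalian mitochondrial ribosomes place Mrps18b and Mrps18c in the small subunit and Mrps18a, despite its symbol, in the large one. Mean levels per kilobase were 139 for Mrps18a, 126 for Mrps18b and 177 for Mrps18c. In CPM, Mrps18a had 2.01 in the lowest cell, 121 in the median cell and 374 in the highest, and Mrps18b had 10.2, 125 and 304. Mrps18c had 34.2, 176 and 323 CPM, the narrowest range of the 3 in relative terms. All 3 had at least 5 reads in every cell after thinning, and their distributions over cells overlapped widely. In the 35 naive-like cells their pairwise Spearman correlations were 0.019, 0.228 and 0.306, the lowest between Mrps18a and Mrps18b. Mrps18b and Mrps18c can share reads with other genes. Mrpl12, the stalk protein that is also reported to bind the mitochondrial RNA polymerase, had 10.4, 187 and 462 CPM in the lowest, median and highest cell.

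Start regions were read because transcription factors NRF1, GABP (an ETS factor) and YY1 are known regulators of nuclear genes for mitochondrial proteins. RefSeq windows (build GRCm38.p6, 250 bases before to 50 bases after a start) were matched to 67 of the 76 members by symbol, with 73 windows, and to 8396 tested genes. The letters of 5 motifs were searched on both strands. The shares below are of genes with a match in any window. The ETS letters CCGGAAG stood in 24 of 67 members (35.8%), beside 20.6% of tested genes and 9.93% of all genes with a window. The NRF1 core GCGCANGCG stood in 15 members (22.4%), beside 15.9% and 7.03%. The YY1 letters AANATGGCG stood in 10 members (14.9%), beside 6.37% and 2.76%. The NF-Y letters CCAAT stood in 40.3% of members and 43.7% of tested genes, and the E-box CACGTG in 7.46% and 12.3%. ETS and YY1 letters can overlap, which they did in 0 member windows. Median GC content was 58.3% in member windows and 60.7% in windows of tested genes. At least 1 of the ETS, NRF1 and YY1 matches was present in 41 members and absent in 26.

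The windows below are shown for the member whose spread passed the test (Mrpl45), the lowest member per kilobase (Mrps26), a member of low spread with both ETS and YY1 letters (Mrpl27), and a member with YY1 letters that shares its start region with another member (Mrps11). Mrps36, the member with the smallest value of variance minus trend, is shown as a window with no match to these 3 motifs. Each runs from 250 bases before the RefSeq start through the first 30 bases after it, 5′ to 3′ on the gene's strand, with ETS, NRF1 core and YY1 matches in capitals. The positions on GRCm38.p6 are chr11:97315466-97315745, plus strand, for Mrpl45, chr2:130563507-130563786, plus strand, for Mrps26, chr11:94653541-94653820, plus strand, for Mrpl27, chr7:78782881-78783160, plus strand, for Mrps11, and chr13:100744630-100744909, minus strand, for Mrps36.
Mrpl45: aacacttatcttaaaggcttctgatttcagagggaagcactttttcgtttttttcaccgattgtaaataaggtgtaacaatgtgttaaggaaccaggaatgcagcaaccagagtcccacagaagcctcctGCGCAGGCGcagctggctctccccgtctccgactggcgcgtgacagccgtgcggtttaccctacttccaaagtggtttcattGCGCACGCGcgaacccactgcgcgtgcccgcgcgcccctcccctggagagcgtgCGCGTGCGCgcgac
Mrps26: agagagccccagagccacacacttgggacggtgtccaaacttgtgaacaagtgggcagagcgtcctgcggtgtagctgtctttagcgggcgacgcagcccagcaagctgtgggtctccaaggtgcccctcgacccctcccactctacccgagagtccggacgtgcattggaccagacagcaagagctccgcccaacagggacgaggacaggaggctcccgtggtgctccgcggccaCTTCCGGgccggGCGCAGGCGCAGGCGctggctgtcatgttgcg
Mrpl27: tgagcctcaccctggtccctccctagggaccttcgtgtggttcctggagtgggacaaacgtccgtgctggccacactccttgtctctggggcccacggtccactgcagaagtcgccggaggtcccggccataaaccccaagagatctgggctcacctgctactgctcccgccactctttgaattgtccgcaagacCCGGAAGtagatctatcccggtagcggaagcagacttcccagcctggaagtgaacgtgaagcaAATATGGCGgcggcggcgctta
Mrps11: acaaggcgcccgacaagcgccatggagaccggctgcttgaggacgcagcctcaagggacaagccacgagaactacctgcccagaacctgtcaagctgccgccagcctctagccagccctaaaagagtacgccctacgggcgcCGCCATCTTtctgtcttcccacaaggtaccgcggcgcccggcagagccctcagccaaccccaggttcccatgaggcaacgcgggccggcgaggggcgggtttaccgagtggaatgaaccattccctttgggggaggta
Mrps36: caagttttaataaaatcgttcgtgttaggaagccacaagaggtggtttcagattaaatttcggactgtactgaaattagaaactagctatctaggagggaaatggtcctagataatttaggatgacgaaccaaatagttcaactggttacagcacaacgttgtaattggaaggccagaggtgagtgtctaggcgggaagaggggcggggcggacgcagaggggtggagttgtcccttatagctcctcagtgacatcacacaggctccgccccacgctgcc

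Mrpl45 carried 3 NRF1 core matches, and Mrps26 carried 1 ETS match and 2 overlapping NRF1 core matches. Matches were thus present in the member that passed the variance test and in the lowest member per kilobase. Members with NRF1 core letters had a median level of 93.9 CPM per kilobase and those without 64.8. The medians were 80.4 and 64.8 for ETS letters, and 70.5 and 74.3 for YY1 letters. Mean pairwise Spearman correlation in naive-like cells was 0.137 among the 24 members with ETS letters and 0.076 among the 43 without. It was 0.048 with and 0.105 without NRF1 core letters, and 0.077 with and 0.089 without YY1 letters. A match is a description of these letters and says nothing of binding.

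Mitochondrial ribosomal protein genes often lie head to head with a neighbour. Of the 67 members with a window, 23 (34.3%) had a window that overlaps that of a gene on the opposite strand, beside 19.1% of tested genes. Mrps11 and Mrpl46, of different subunits, form such a pair with each other, since the window of Mrpl46 (chr7:78783060-78783339, minus strand) overlaps the one printed for Mrps11. In naive-like cells the Spearman correlation of this pair was 0.124, rank 1209 of 2850 member pairs. Over 18 head-to-head pairs with a tested partner the median correlation was 0.039, from -0.236 (Mrpl21 with Ighmbp2) to 0.483 (Mrpl18 with Tcp1, a subunit of the cytosolic chaperonin). Mrpl49 and its partner Fau, which encodes a cytosolic ribosomal protein, had 0.324. The correlations of the pairs lay above 0 in 9 of 18. Partner levels differed widely. Median CPM was 0 for Klc4, Zfp189 and Zfp661 and 0.511 for Ighmbp2, beside 529 for Fau and 1106 for Tcp1. A correlation with a partner near 0 CPM says little.

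Detection was counted after each cell was thinned to 4408953 reads, and 5 reads were required. In every one of the 48 cells, 49 of 76 members were detected (32 of the large and 17 of the small subunit), beside 15.2% of tested genes. Among 1179 tested genes with a mean log2 level within the members' middle range, 39.9% were detected in every cell, as were 27 of the 38 members in that range. A further 21 members were detected in 44 to 47 cells. The remaining 6 were Mrpl19 (43 cells), Mrps2 (42), Mrpl41 (42), Mrpl3 (39), Mrps26 (37) and Mrps30 (36, a share with an exact Clopper-Pearson 95% interval from 60.4% to 86.4%, counting error only). A cell had from 68 to 76 detected members. In unthinned counts, 11 members had 0 reads in some cell, Mrps26 in 7 cells, Mrps30 in 4 and Mrpl3 in 3. Even members present in most cells dropped low at times. For 51 members at least 1 cell lay under 10% of the member's own median CPM, and for 14 members at least 5 cells did. The counts of members with 0 reads and with low cells were not made over other genes. They therefore do not show whether members drop more or less often than other genes.

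Spread over cells was compared with that of other genes of like mean. Of 76 members, 1 passed the one-sided test of scran's modelGeneVar at an adjusted p under 0.05, beside 2.03% of all tested genes, and 3 had an unadjusted p under 0.05. The member that passed was Mrpl45, a large subunit protein at the exit of the peptide tunnel. It had 8.78 CPM in the lowest cell, 370 in the median cell and 784 in the highest, and its variance of log2(CPM + 1) was 1.67 against a trend of 0.737 (adjusted p = 0.0423, scran with Benjamini-Hochberg adjustment). Naive-like cells had 152 to 734 CPM of Mrpl45 with a median of 446, and endoderm-like cells had 8.78 to 784 with a median of 233. Low values came from the endoderm-like cells, 5 of 13 of which lay below every naive-like cell, while the others overlapped with them. Within the naive-like cells alone the variance of Mrpl45 was 0.285, below its trend of 0.509. In that same fit Mrpl49 was the 1 member that passed, beside 1.75% of the 11454 genes fitted. Its variance was 3.98 against 1.73 (adjusted p = 0.0195, scran), where 2 naive-like cells had under 10 CPM and the highest had 488. The call of Mrpl45 was lost with a pseudocount of 10 CPM, with no read minimum, with the squared coefficient of variation and with a trend on CPM per kilobase.

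Below the trend lay 61 of 76 members (80.3%), beside 49.4% of all tested genes, with a median of variance minus trend of -0.74 against 0.01. By symbol, these were 35 of 47 large and 26 of 29 small subunit genes. This count depended on the unit of the level. In full-length libraries a longer transcript yields more reads per molecule, and members are short. Of the 38 members with shorter exon unions 34 lay below the CPM trend, and of the 38 longer ones 27. Variance minus trend followed exon length with a Spearman correlation of 0.295 over members and 0.115 over tested genes. Whether length took part in the count was not tested. Variance and trend were also both fitted on CPM per kilobase. Below that trend lay 40 of 76 members (52.6%), beside 46.9% of the 11605 genes with a length. The median of variance minus trend was then -0.01 for members and 0.05 for all genes, which leaves the members near the background. On this scale variance minus trend followed exon length over members with a Spearman correlation of -0.389. The values thus varied with length on both scales, in opposite directions. Below both trends lay 38 members and above both lay 13. Of the small subunit 15 of 29, and of the large 25 of 47, lay below the per-kilobase trend.

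**Figure D2:**
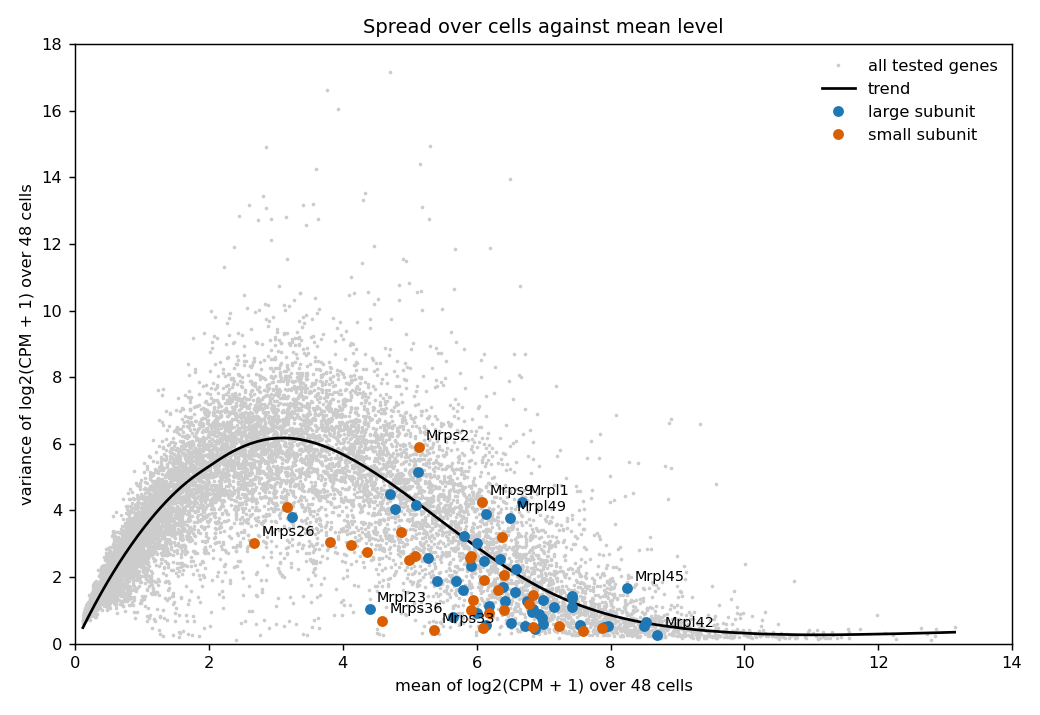
Variance of log2(CPM + 1) over 48 cells against its mean for each tested gene (grey), the fitted trend (line) and the members by subunit. Of 76 members 61 lie under the line, and Mrpl45 is the one that passed the test above it.

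**Figure D3:**
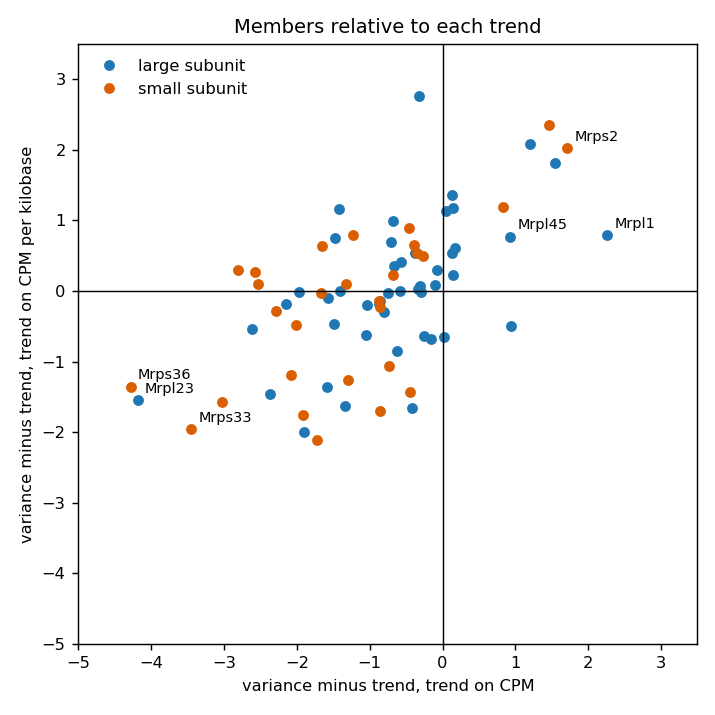
Variance minus trend for each member, with variance and trend both on CPM (horizontal axis) or both on CPM per kilobase of exon (vertical axis), in squared log2 units. Of 76 members, 38 lie below 0 on both axes and 13 above 0 on both; 61 lie left of 0 and 40 lie under it.

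The 6 members with the largest variance above trend did not pass the test. Mrpl1 ranked first, with 0.681, 144 and 901 CPM in the lowest, median and highest cell and a variance of 4.26 against 2.00 (adjusted p = 0.106, scran). Naive-like cells had at least 25.2 CPM of Mrpl1, and 6 of the 13 endoderm-like cells lay below that. Mrps2 had 0.166, 55.0 and 411 CPM, and its variance was 5.90 against 4.20. Mrpl49 had 0.211, 124 and 488 CPM with a variance of 3.77 against 2.23. Mrps9 had 0.409, 121 and 358 CPM with a variance of 4.24 against 2.79. Mrpl44, a protein with an RNase III-like fold, had 0.365, 99.4 and 453 CPM with a variance of 3.90 against 2.70. Mrpl19 had 0, 67.2 and 308 CPM with a variance of 5.15 against 4.21. The last 5 had adjusted p-values from 0.884 to 0.906 by the same scran test. Mrpl1, Mrps9, Mrpl44, Mrps2 and Mrpl49 also lay above the per-kilobase trend, where none passed (lowest adjusted p = 0.0533, scran, for Mrps9), and Mrpl19 lay below it.

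The 6 members with the smallest values of variance minus CPM trend had median levels from 6.75 CPM (Mrps26) to 51.7 CPM (Mrpl27). Mrps36, which has since been described as a subunit of the 2-oxoglutarate dehydrogenase complex, had 3.35, 25.4 and 64.9 CPM in the lowest, median and highest cell. Its variance was 0.697 against a trend of 4.98. Mrpl23 had 3.09, 21.5 and 97.3 CPM with a variance of 1.04 against 5.22, and Mrps33 had 14.1, 43.0 and 98.5 CPM with 0.399 against 3.85. All 3 were found in every thinned cell. Mrps26 had a variance of 3.01 against 6.04, Mrps6 had 3.05 against 5.86, and Mrpl27 had 0.81 against 3.43. With the exception of Mrps6, these members also lay below the per-kilobase trend, with Mrps33 at -1.96 and Mrpl23 at -1.55. Mrps36, Mrpl23, Mrps33, Mrps6 and Mrpl27 can share reads with another gene. Whether that took part in their low spread was not tested.

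Across the clusters the family's share of reads was lower in endoderm-like cells. It was 0.678%, 0.977% and 1.24% in the lowest, median and highest naive-like cell and 0.558%, 0.801% and 0.937% in endoderm-like cells. Of the 35 naive-like cells 23 lay above every endoderm-like cell, and 2 lay below the endoderm-like median. Summed over cells the share was 0.988% (exact 95% interval 0.987 to 0.990) against 0.793% (0.791 to 0.794), intervals that cover counting error only. Cells of 1 sample are not replicates, so no test was made. Respiratory chain genes took 2.32% of reads in the median naive-like and 2.21% in the median endoderm-like cell, and cytosolic ribosomal protein genes took 7.32% and 6.57%. The 5 cells farthest towards endoderm had a median member share of 0.764%, and the 8 endoderm-like cells between had 0.842%. After scaling, this order turned around, with a mean summed level of 9393 CPM in the 5 farthest cells, 7504 in the 8 between and 10010 in naive-like cells. Scaling factors of the 5 farthest cells ran from 0.733 to 0.845, beside 0.773 to 1.44 in naive-like cells. The smaller cluster as a whole stayed lower on both scales, with 8230 CPM. A lower share and fewer RNA molecules per cell cannot be told apart here.

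**Figure D4:**
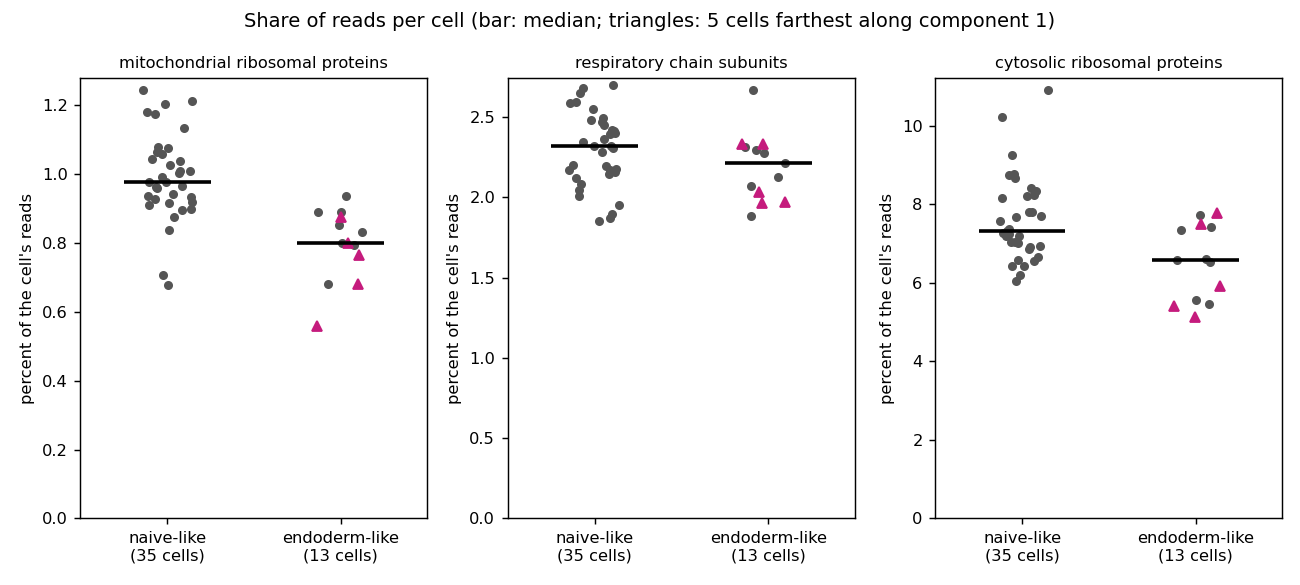
Percent of each cell's reads in mitochondrial ribosomal protein genes, respiratory chain genes and cytosolic ribosomal protein genes, for 35 naive-like and 13 endoderm-like cells. Bars are medians and triangles mark the 5 cells farthest along the first principal component; for the mitochondrial ribosomal protein genes the medians are 0.977% and 0.801%.

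Gene by gene, the members that differed 2-fold between the clusters depended on how the level was averaged. At least 2-fold higher in endoderm-like cells by mean CPM was 1 member, beside 17.1% of tested genes, and at least 2-fold lower were 7, beside 25.8%. The median log2 ratio of endoderm-like over naive-like cells was -0.30 for members and -0.21 for all tested genes. Lower in endoderm-like cells were 52 of 76 members, beside 58.0% of tested genes, and 24 members were higher. The clusters did not overlap in 0 of 76 members, beside 0.196% of tested genes. By the difference of mean log2 values, 1 member was 2-fold higher and 13 were lower, beside 15.9% and 16.5% of tested genes, so the share of lower members was then near the background. With the 5 farthest cells in place of all endoderm-like cells, 2 members were higher and 11 lower, beside 22.6% and 37.3%. The median log2 ratio of members was then -0.03, above the -0.28 of tested genes. The 7 lower members were Mrpl1 (log2 ratio -1.77), Mrps9 (-1.60), Mrps30 (-1.50), Mrps31 (-1.32), Mrpl3 (-1.21), Mrpl9 (-1.18) and Mrpl21 (-1.11). Mrpl1 averaged 230 CPM in naive-like and 66.8 CPM in endoderm-like cells. Mrps9 averaged 152 and 49.4 CPM, and its medians were 144 and 20.7. Mrps31 averaged 148 and 58.8 CPM, and Mrpl21 averaged 159 and 73.1 CPM. Mrps30, which structures place in the large subunit despite its symbol, averaged 21.8 and 7.02 CPM, and Mrpl3 averaged 22.3 and 9.10 CPM. Mrpl9 averaged 84.9 and 37.0 CPM, and a highest naive-like cell of 569 CPM weighs on its mean.

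Mrpl53 was the member that was higher in endoderm-like cells, with means of 40.5 CPM in naive-like and 117 CPM in endoderm-like cells (log2 ratio 1.51). Naive-like cells had 0.575, 37.7 and 131 CPM in the lowest, median and highest cell, and endoderm-like cells had 22.2, 100 and 265. Of the 13 endoderm-like cells 10 lay above the naive-like median and 4 above every naive-like cell. All of the exon bases of Mrpl53 in GENCODE vM21 lie within Gm42688, a gene model on the same strand, so its reads cannot be assigned to Mrpl53 with certainty. The next members by ratio were Mrps21 (0.64), Mrps23 (0.56), Mrpl54 (0.56), Mrps26 (0.50) and Mrpl16 (0.40), all under 2-fold. Mrps21, which can share reads with a near-identical copy, averaged 65.2 and 102 CPM, and Mrpl54 averaged 68.7 and 102 CPM.

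**Figure D5:**
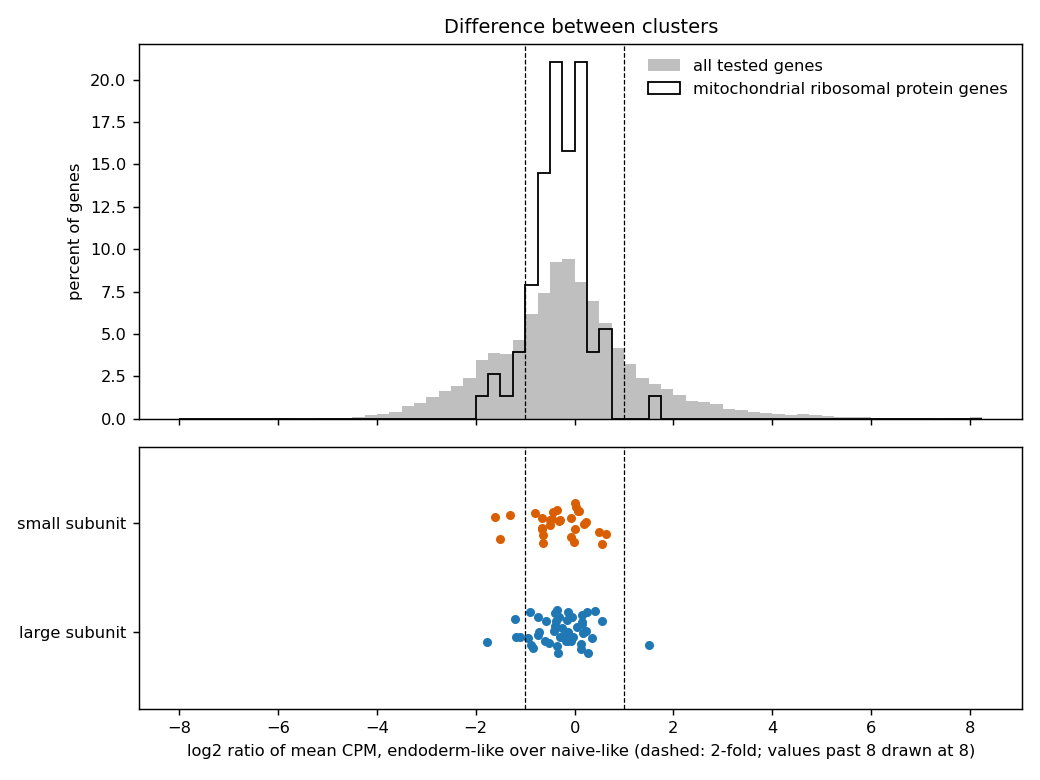
Log2 ratio of mean CPM (pseudocount 1 CPM) of endoderm-like over naive-like cells, as a histogram for all tested genes and for members (top) and as 1 point per member by subunit (bottom; vertical scatter has no meaning). Of 76 members, 1 lies right and 7 lie left of the dashed 2-fold lines.

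Members moved together weakly over the 35 naive-like cells. The mean pairwise Spearman correlation of log2(CPM + 1) was 0.084 over 2850 pairs (SD over pairs 0.186), from -0.597 to 0.722. It was 0.001 over all tested genes and 0.026 over the 1179 genes within the members' middle range of mean level. Respiratory chain genes had 0.198 among themselves and cytosolic ribosomal protein genes 0.641. Large subunit genes had 0.087 among themselves, small subunit genes 0.074, and pairs across the subunits 0.085. The value depends on the scaling, which the cells share. It was 0.027 with library size alone, 0.037 with scran's pooled factors and 0.059 with DESeq2's factors, and 0.027 in cells thinned to equal depth. Genes within the members' middle range had 0.005, 0.005, 0.012 and 0.004 under these settings, in this order. All tested genes had 0.011, 0.008, 0.001 and 0.006. Values this small in single cells describe at most a slight tendency.

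A few members followed the rest more closely. The correlation of a member with the summed CPM of the other members was highest for Mrpl22 (0.71), Mrpl42 (0.67), Mrpl40 (0.64), Mrpl21 (0.62) and Mrps33 (0.60). All but Mrpl40 can share reads with another gene. It was lowest for Mrps6 (-0.25), Mrpl3 (-0.24), Mrpl38 (-0.20), Mrpl50 (-0.11) and Mrps30 (-0.06), of which Mrpl3 and Mrps30 are among the least expressed. The median over members was 0.268, and 65 of 76 values lay above 0. A member and the sum share each cell's scaling factor, and no values under another scaling are given for these correlations. The closest pair was Mrpl42 and Mrpl55, with 0.722, followed by Mrpl52 and Mrps28 with 0.645 and Mrps16 and Mrps33 with 0.618. The percent of reads in large subunit genes followed that in small subunit genes with a Spearman correlation of 0.371, or 0.255 without the 2 cells farthest from the median. The member share followed the respiratory chain share with 0.359, or 0.237 without 2 such cells, and the cytosolic ribosomal share with 0.125. Its correlation with the number of genes detected was -0.095 and with the read total -0.166.

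Other genes of mitochondrial translation were read from lists made with earlier results of these data known. Over all tested genes, 2.03% were called, 49.4% lay below the CPM trend, and 25.8% were at least 2-fold lower and 17.1% higher in endoderm-like cells. None of the 7 tested mitochondrial ribosomal proteins with other names passed the variance test, Ptcd3 and Dap3 among them. Ptcd3 averaged 225 CPM with a variance of 2.10 against 1.33, and Dap3, a GTP-binding small subunit protein, averaged 184 CPM with 0.878 against 1.36. Of these 7, 0 were 2-fold different between clusters. Translation factors had 0 of 13 called, with 5 at least 2-fold lower and 1 higher in endoderm-like cells, beside 25.8% and 17.1% of tested genes. The 2 with the largest variance above trend were the release factor homologue Mtrf1 (7.88 against 6.17) and the ribosome recycling factor Mrrf (7.02 against 6.15).

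Assembly factors had 0 of 24 called, with 10 at least 2-fold lower and 1 higher, beside the same 25.8% and 17.1%. Fastkd2, an RNA-binding protein of the large subunit's assembly, had a variance of 6.41 against 3.34, and Eral1, a chaperone of the small subunit's rRNA, had 7.77 against 6.10. Mitochondrial aminoacyl-tRNA synthetases had 0 of 17 called, with 9 at least 2-fold lower and 1 higher, and a median log2 ratio of -1.05 beside -0.21 over tested genes. Rars2 averaged 181 CPM in naive-like and 51.6 CPM in endoderm-like cells. These lists were of far lower level than the ribosomal proteins, with medians of 7.27 CPM per kilobase for the synthetases and 12.3 for the assembly factors, so their folds rest on fewer reads. Genes for transcription and replication of mitochondrial DNA had 0 of 7 called. Of these, Polg2 had a variance of 6.39 against 6.15 and Tfam, which packages mitochondrial DNA, 1.60 against 1.52.

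Among 9 tested nuclear regulators of mitochondrial genes, Mycn was called. It averaged 281 CPM with a variance of 3.48 against a trend of 1.31 (adjusted p = 0.00157, scran with Benjamini-Hochberg adjustment), and its log2 ratio between the clusters was -0.19. Respiratory chain genes had 0 of 82 called, beside 2.03% of tested genes, with 71 below the CPM trend, beside 49.4%, and Ndufs1 (3.43 against 1.74) was among the highest above it. Cytosolic ribosomal protein genes had 0 of 81 called, with 78 below the trend, and the paralogs Rpl10l (8.68 against 6.10) and Rpl39l (6.47 against 4.78) lay highest above it. Whether the counts below the trend in these lists depend on the unit of level, as those of the members did, was not tested.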

How the data were processed

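Read counts per gene and lane were deposited by the authors as whole numbers, not normalized. STAR 2.3.1z12, Subread 1.4.5-p1, featureCounts and the build mm9 are listed, without role or order, per the submitters' processing notes. Per the labels' protocols, cDNA came from the SMARTer kit and libraries from Nextera XT, which do not mark strand, so overlapping antisense reads cannot be told apart.

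The 2 lanes of a cell were summed. Counts were scaled with edgeR 4.0.16 (TMMwsp) to CPM and taken as log2(CPM + 1). R 4.3.3 was used. The spread of each gene was tested with scran 1.30.0 (modelGeneVar, one-sided, threshold 0.05), with Benjamini-Hochberg adjustment over the 11746 genes whose mean reached 10 reads. edgeR's quasi-likelihood test has no contrast to test in 1 group. Clusters came from Ward's method on 5 principal components of 500 genes. No doublet caller was run, and a library of the cells between could hold more than 1 cell. Intervals are exact Clopper-Pearson intervals, and they cover counting error only, since reads carry no molecular identifiers and several can come from 1 molecule.

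The variance, lane and correlation procedures were also run on simulated data, and the outcomes are not reported here. The simulated data for the variance procedure held no clusters of cells, unlike the real cells. Exon lengths came from GENCODE vM21, for 98.8% of tested genes and all 76 members, and start regions from RefSeq (GRCm38.p6); neither is the build of the counts, so no coordinate was joined to a read. The members, lists and 5-cell and 8-cell division were chosen with earlier results of these data known. Members named are those called, the 6 with the most and the least variance above trend, level and difference between clusters, the 5 that follow the others most and least, the 2 nearest the read minimum, the Mrps18 paralogs and Mrpl12. Of each list the called genes or the 2 with the most variance above trend are named. Some genes that this rule picks are not reported here. Names outside this rule, such as Mrpl41, Mrpl46 and Mrpl55, were chosen after their values were seen. Alternatives were other size factors, pseudocounts, read minima, single lanes, thinning, cell subsets and a fit of variance and trend on CPM per kilobase.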

Additional observations from a re-analysis of the deposited data

How the results depend on the processing

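The count of members called as more variable than the trend was 1 under 9 of 13 alternatives and 0 under the other 4. Those 4 were a pseudocount of 10 CPM, no read minimum, the squared coefficient of variation, and variance and trend on CPM per kilobase. Of all genes fitted, 1.35%, 1.15%, 6.22% and 1.99% were called under these 4, in this order. Under the 9 with 1 call the share of fitted genes called ran from 1.71% to 3.01%. With naive-like cells alone the 1 call was Mrpl49 and not Mrpl45. The ratio of variance to trend for Mrpl45, 2.27 in the fit reported, turned to 0.825 with the squared coefficient of variation and to 0.559 with naive-like cells alone. For Mrpl1, Mrps2, Mrps9 and Mrpl44 the side of the trend and of the threshold was kept under all 13 alternatives. Members at least 2-fold different between clusters numbered 8 as reported, 14 by the difference of mean log2 values (1 higher and 13 lower, beside 15.9% and 16.5% of tested genes), and 13 against the 5 cells farthest along the first component (2 higher and 11 lower, beside 22.6% and 37.3%). That last comparison was chosen after seeing the data, as were the per-kilobase trend, thinning for the clusters, the smaller cluster for correlations and the fits without the cells between or without members that can share reads. The mean pairwise correlation of 0.084 became 0.037 with scran's pooled factors, 0.027 with library size only, 0.042 with genes detected regressed out, 0.027 in thinned cells and 0.034 in the smaller cluster. Genes within the members' middle range, with 0.026 in the main setting, had 0.005, 0.005, 0.013, 0.004 and 0.014 in this order. The median share of reads was 1.19% with the 100 rows of most reads out of the denominator. The cause of these shifts was not tested. The count of 49 members detected in every cell stayed within 1.5 times under its 3 alternatives. No paired analysis was possible because all cells form 1 group. Replicates could not be left out in turn, since the labels name no replicate cultures.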
